A study of Mus musculus with 108 samples.

Results

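The hippocampus (HIP) and the cerebellum (CB) of wild-type (WT) mouse embryos were compared at late gestation (E17.5), in 12 of the 108 RNA-seq libraries of the series. The libraries were chosen by label alone, 6 of HIP and 6 of CB, and each of the 6 mice gave one of each, so that region was compared within mouse. The study asked how a germline loss-of-function insertion in one copy of Cul3, which encodes the scaffold of a ubiquitin ligase, alters the developing brain, and it profiled cortex, HIP and CB of WT and Cul3+/- mice at E17.5, at postnatal day (P) 7 and in adults (P35). The WT mice carried no engineered allele and came from the colony on the background labelled C56Bl/6N (C57BL/6N in the study's methods). Further groups were set beside them, namely Cul3+/- embryos at E17.5 (6 mice), WT pups at P7 (6 mice) and WT adults at P35 (5 mice). Each library was made from whole dissected tissue, without sorting of cells, and the labels give neither the sex of the embryos nor the limits of the dissection.

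The hippocampus forms from the medial wall of the dorsal telencephalon next to the cortical hem, a signalling centre that secretes Wnt proteins. The cerebellum forms at the front of the hindbrain under signals from the isthmus, with excitatory granule cells arising from the rhombic lip and inhibitory Purkinje cells and interneurons from the ventricular zone. Late in gestation, pyramidal neurons of HIP have been born and granule neurons of the dentate gyrus are being made, whereas in CB Purkinje cells are migrating and granule cell precursors cover the surface and divide mainly after birth.

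The HIP libraries held fewer counts than the CB libraries, 15126114 to 32356968 against 28138816 to 35827661 in all, and in 6 of 6 mice the HIP library was the smaller (exact sign-flip permutation test, two-sided p = 0.0312, the smallest that 6 pairs can give). The first principal component held 65.2% of the variance and separated the regions. Spread was wider among HIP libraries, with a median SD over genes of 0.28 on the log2 scale against 0.14 in CB, and the second component (10.8%) set the HIP libraries of mice 3 and 4, which share a prefix in their names, apart from the other HIP libraries. Some libraries stood apart in the summed levels of marker lists. Choroid plexus genes summed to 5381 CPM (counts per 1000000 counts of the library, after scaling between libraries) in HIP of mouse 2 and to 34.6 to 196 CPM in the other HIP libraries. HIP of mouse 6 had the highest sum of forebrain interneuron genes, 973 CPM, and of isthmus and hindbrain factors, 669 CPM, against at most 711 and 385 CPM in the other HIP libraries. The latter list includes Meis2 and Zic factors, which HIP also expresses. Its members En2 and Pax3 were almost silent and Pax2 had no count in every HIP library, mouse 6 included. Striatum genes were also highest in HIP of mouse 6 among HIP libraries, 40.1 CPM against at most 25.9 CPM, with 44.4 to 55.9 CPM in CB. The source of the high sums in HIP of mouse 6 was not tested. The 22 Hox genes listed, which mark hindbrain behind the cerebellum and spinal cord, summed to 1.32 to 25.6 CPM in CB and to at most 0.272 CPM in HIP, and genes of brainstem neurons to 7.28 to 44.9 CPM in CB against 3.49 to 15.1 CPM in HIP.

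**Figure D1:**
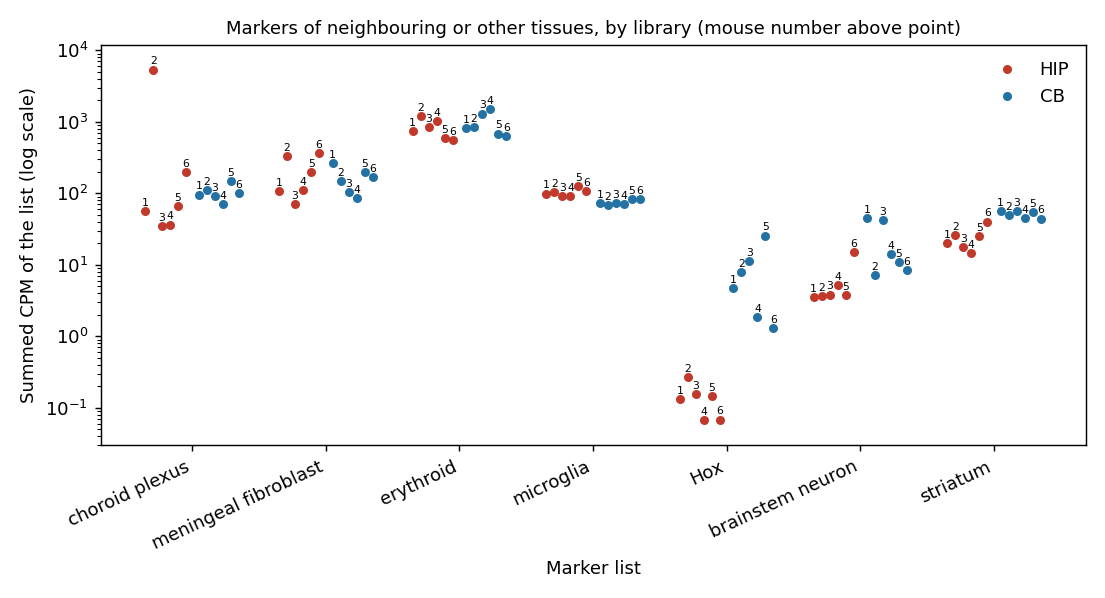
Summed CPM of 7 marker lists in each library (y axis, log scale), HIP in red and CB in blue, with the number of the mouse above each point. One HIP library, of mouse 2, lies at 5381 CPM for choroid plexus, and every CB library lies above every HIP library for Hox genes.

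HIP and CB differed widely. Of 17442 genes tested, 7797 (44.7%) passed an adjusted p of 0.1 in edgeR's quasi-likelihood test, 3553 (20.4%) higher in HIP and 4244 (24.3%) higher in CB. A difference of at least 2-fold was met by 2442 of these genes (14% of those tested), 910 (5.22%) higher in HIP and 1532 (8.78%) higher in CB, and 456 differed by 8-fold or more, 141 higher in HIP and 315 higher in CB. The 6 HIP and the 6 CB libraries did not overlap for 4121 genes (23.6%). The median log2 fold change of HIP over CB over all genes tested was -0.01, so that changes are relative to a midpoint near 0. Which region had more genes depended on the setting: 4039 were higher in HIP and 3843 in CB with upper-quartile scaling, and HIP had more than CB without mouse 1 (3211 and 3157), mouse 2 (3677 and 3396) or mouse 5 (3422 and 3346). Without mice 2 and 6, 7148 genes passed and 2552 of them were at least 2-fold different. In such tissue, more cells of a type and more RNA per cell cannot be told apart.

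Transcription factors of the dorsal telencephalon were the clearest mark of HIP. Of 12 listed factors tested, 11 were higher in HIP and none was higher in CB, with a median log2 fold change of 6.60. Emx1 (ENSMUSG00000033726, chromosome 6, 85187438 to 85204462 on GRCm38), a homeobox factor of the dorsal pallium, lay between 33.8 and 85.7 CPM in HIP (median 41.2) and between 0 and 0.084 CPM in CB (median 0.0307) (log2 fold change 10.33 ± 0.31 (SE), adjusted p = 2.34e-07). All 6 HIP libraries were far above all 6 CB libraries, where the gene was almost silent. Its relative Emx2, which hippocampal growth requires, had 6107 counts over the HIP libraries and 3 over the CB libraries, a ratio of 2829-fold (counting interval 968 to 13719.8). Dmrt3, a zinc-finger factor of the medial pallium, had no count in any CB library and was at least 802-fold higher in HIP, against a floor of 3 counts over the 6 libraries. Lhx2, the selector gene that separates cortex from hem, was less exclusive, between 158 and 296 CPM in HIP (median 188) and between 0.78 and 2.64 CPM in CB (median 1.97) (log2 fold change 6.90 ± 0.23 (SE), adjusted p = 3.78e-07). Lhx9 (log2 fold change 2.16 ± 0.13) and Nr2f1 (0.94 ± 0.07) were higher in HIP by smaller amounts, and Nr2f2, a nuclear receptor of the caudal pallium, did not pass the test (-0.08 ± 0.13, adjusted p = 0.66), except without mouse 6 (-0.23, adjusted p = 0.05).

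Factors of pallial glutamatergic neurons followed with more exceptions. Of 24 tested, 15 were higher in HIP and 5 in CB, with a median log2 fold change of 1.08. Fezf2 (ENSMUSG00000021743, chromosome 14, 12342094 to 12348189), which specifies subcortical projection neurons, had the smallest p of all genes higher in HIP, and lay between 44.1 and 85 CPM in HIP (median 63.7) and between 0 and 0.0937 CPM in CB (median 0.0306) (log2 fold change 10.44 ± 0.20 (SE), adjusted p = 2.87e-08). Neurod6, a factor of maturing pyramidal neurons, lay between 205 and 414 CPM in HIP (median 367) and between 29.7 and 36.7 CPM in CB (median 33.5) (log2 fold change 3.32 ± 0.16 (SE), adjusted p = 1.82e-06), so that CB held an appreciable level as well. Tbr1 (log2 fold change 3.61 ± 0.32), Neurog2 (3.26 ± 0.21), Bcl11b (2.31 ± 0.23) and Bhlhe22 (2.09 ± 0.21) were higher in HIP. Eomes, which marks intermediate progenitors in HIP and unipolar brush cells in CB, was higher in HIP by a smaller amount (1.29 ± 0.52), a call that was lost without mouse 1, 3 or 4 (adjusted p = 0.14, 0.18 and 0.13). The members higher in CB were Pou3f2 (-2.58 ± 0.17), Neurog1 (-1.53 ± 0.52), Id2 (-0.92 ± 0.14), Cux1 (-0.59 ± 0.07) and Cux2 (-0.55 ± 0.17). Of these, Neurog1 did not pass without mouse 1 or 2 (adjusted p = 0.12 and 0.13), nor Cux2 without mouse 3 (0.11).

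Genes of the hippocampal fields were in part already higher in HIP at this age. Of 13 tested, 7 were higher in HIP and 1 in CB. Zbtb20, which is needed for the hippocampal fate of pyramidal neurons, lay between 745 and 1841 CPM in HIP (median 925) and between 42.8 and 70.5 CPM in CB (median 46.1) (log2 fold change 4.41 ± 0.21 (SE), adjusted p = 2.17e-06). Prox1, the selector of dentate granule cells, lay between 69.6 and 208 CPM in HIP (median 118) and between 14.3 and 18.4 CPM in CB (median 16.8) (log2 fold change 2.92 ± 0.18 (SE), adjusted p = 9.06e-06). Both genes had no overlap between the regions. Nr3c2, the mineralocorticoid receptor, was higher in HIP (log2 fold change 3.22 ± 0.37), as were Kctd4 (3.07 ± 0.19) and Nrp2 (3.01 ± 0.19). Wfs1, Man1a, Grik4, Ociad2 and Etv1, which mark fields of the mature hippocampus, did not pass the test, and their log2 fold changes lay between -0.41 and 0.39. Grik4 passed without mouse 3 (0.59, adjusted p = 0.025) or mouse 4 (0.54, adjusted p = 0.062). Spock1 was higher in CB (-0.99 ± 0.24).

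**Figure D2:**
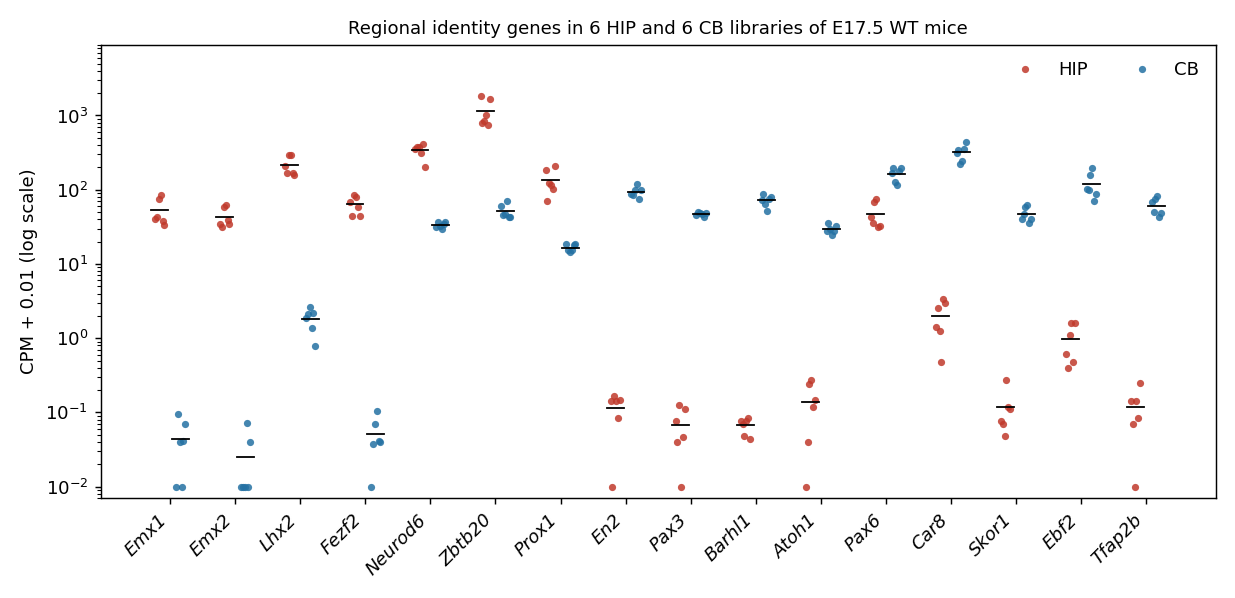
CPM plus 0.01 (y axis, log scale) of 16 regional identity genes in 6 HIP (red) and 6 CB (blue) libraries, with a black bar at the mean. The 7 genes on the left are higher in every HIP library and the 9 on the right in every CB library.

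Most Wnt pathway genes that differed were higher in HIP. Of 39 Wnt pathway genes tested, 21 were higher in HIP and 5 in CB, with a median log2 fold change of 0.73. Among ligands, Wnt8b of the medial pallium lay between 17 and 38.4 CPM in HIP (median 24.5) and between 0.0311 and 0.242 CPM in CB (median 0.101) (log2 fold change 7.81 ± 0.23 (SE), adjusted p = 2.00e-07). Wnt3a, the hem ligand on which hippocampal growth depends (3.74 ± 0.40), Wnt2b (2.58 ± 0.22), Wnt7a (1.95 ± 0.15) and Wnt5a (1.43 ± 0.15) were higher in HIP, whereas Wnt3, which Purkinje cells make in the cerebellum, was higher in CB (-3.71 ± 0.11). The listed R-spondins, secreted amplifiers of Wnt signalling, were higher in HIP, with log2 fold changes of 3.48 ± 0.26 for Rspo1, 3.03 ± 0.32 for Rspo2 and 4.85 ± 0.35 for Rspo3. Among receptors Fzd7 (1.79 ± 0.12), Fzd1 (1.36 ± 0.16) and Fzd9 (1.17 ± 0.33) were higher in HIP and Fzd10 was higher in CB (-1.98 ± 0.11). Of the targets and nuclear partners, Lef1, which the dentate gyrus requires (2.23 ± 0.21), and Axin2 (0.71 ± 0.16) were higher in HIP, and Nkd1 (-1.15 ± 0.22) and Sp5 (-1.71 ± 0.28) were higher in CB. Of 16 Cajal-Retzius and cortical hem genes, 10 were higher in HIP and 5 in CB, 3 of the latter by at least 2-fold. Cajal-Retzius cells come in part from the hem, and their marker Trp73 lay between 35 and 53.7 CPM in HIP (median 47.5) and between 0.636 and 1.83 CPM in CB (median 1.38) (log2 fold change 5.10 ± 0.22 (SE), adjusted p = 1.17e-06). Reln, the signal they secrete, is also made by cerebellar granule cells and differed less (0.78 ± 0.09).

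Forebrain interneuron genes differed in both directions. Of 20 tested, 12 were higher in HIP and 6 in CB. The first set included forebrain factors, with Dlx1 between 23.3 and 86.1 CPM in HIP (median 34.9) and between 0.0606 and 0.187 CPM in CB (median 0.108) (log2 fold change 8.37 ± 0.23 (SE), adjusted p = 1.32e-07) and Lhx6, a factor of interneurons from the medial ganglionic eminence, between 29.4 and 56.7 CPM in HIP (median 46.3) and between 0.056 and 0.28 CPM in CB (median 0.108) (log2 fold change 8.38 ± 0.22 (SE), adjusted p = 1.19e-07). No CB library reached the lowest HIP library for either gene. Among the 6 members higher in CB, not all of which are named here, were genes of the inhibitory phenotype that both regions share. Gad1, which makes GABA, lay between 19.7 and 116 CPM in HIP (median 40.8) and between 119.8 and 139 CPM in CB (median 129.9) (log2 fold change -1.68 ± 0.29 (SE), adjusted p = 0.0026). The vesicular transporter Slc32a1 (-1.93 ± 0.27) and Sst (-2.50 ± 0.30) were also higher in CB. So was Gad2 (-0.86 ± 0.36), but that call was lost without any one of mice 1 to 5 (adjusted p = 0.13 to 0.25). In HIP of mouse 6, which had the highest sum of this list, Gad1 was at 116 CPM.

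Patterning factors of the isthmus and hindbrain were the mirror image in CB. Of 22 tested, 20 were higher in CB, 1 was higher in HIP (Meis2, 0.39 ± 0.15, not without mouse 1 or 3, adjusted p = 0.14 and 0.103), and the median log2 fold change was -5.34. En2 (ENSMUSG00000039095, chromosome 5, 28165694 to 28172166), a homeobox factor of the midbrain and cerebellum, lay between 0 and 0.155 CPM in HIP (median 0.134) and between 75 and 119 CPM in CB (median 92.8) (log2 fold change -9.84 ± 0.24 (SE), adjusted p = 6.99e-08). Pax3 lay between 0 and 0.116 CPM in HIP (median 0.0518) and between 43.2 and 50.5 CPM in CB (median 48.2) (log2 fold change -9.50 ± 0.22 (SE), adjusted p = 6.99e-08). Pax2 had no count in any HIP library and was at least 286-fold higher in CB. Irx1 (-7.81 ± 0.36), Irx2 (-8.74 ± 0.27), Irx5 (-6.27 ± 0.46) and Meis1 (-6.25 ± 0.18) were higher in CB by more than the Zic factors, which both regions use, with log2 fold changes from -2.39 for Zic1 to -1.56 for Zic5.

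The granule cell lineage gave both directions. Of 23 tested, 12 were higher in CB and 6 in HIP. Barhl1 (ENSMUSG00000026805, chromosome 2, 28907679 to 28916668), a homeobox factor of the rhombic lip, had the smallest p of all genes, and lay between 0.0342 and 0.0731 CPM in HIP (median 0.0636) and between 52.3 and 86.7 CPM in CB (median 74.4) (log2 fold change -10.28 ± 0.13 (SE), adjusted p = 5.85e-09). Atoh1, which granule precursors require, lay between 0 and 0.267 CPM in HIP (median 0.123) and between 24.5 and 35.3 CPM in CB (median 28.9) (log2 fold change -7.87 ± 0.34 (SE), adjusted p = 1.11e-06). Every HIP library was near 0 for both. Unc5c, a netrin receptor of migrating granule precursors, lay between 13.8 and 32.1 CPM in HIP (median 20.2) and between 519 and 599.7 CPM in CB (median 567) (log2 fold change -4.81 ± 0.18 (SE), adjusted p = 6.28e-07). Pax6, shared with cortical progenitors, was higher in CB by -1.86 ± 0.29 on the log2 scale. The list members higher in HIP were Tbr1, Cntn2 (2.72 ± 0.12), Lhx9, Eomes, Calb2 (0.82 ± 0.11) and Neurod1 (0.60 ± 0.25). Neurod1 and Eomes lost their calls without mouse 1, 3 or 4 (adjusted p from 0.13 to 0.19), and Neurod1 also without mouse 2 (0.11). Gabra6, a receptor subunit of mature granule cells, had too few counts to be tested, with means of 0.282 ± 0.123 CPM in HIP and 0.0392 ± 0.0395 CPM in CB.

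Purkinje cell genes were higher in CB as a body. Of 28 tested, 25 were higher in CB and 1 in HIP, with a median log2 fold change of -2.86. Pcp2 and Skor2, a Purkinje cell protein and a corepressor of the lineage, had no count in any HIP library and were at least 1392-fold and 1363-fold higher in CB. Car8, which binds the IP3 receptor, lay between 0.468 and 3.4 CPM in HIP (median 1.97) and between 224 and 437 CPM in CB (median 329) (log2 fold change -7.35 ± 0.24 (SE), adjusted p = 3.30e-07). The factor Foxp2 lay between 2.7 and 12.4 CPM in HIP (median 4.45) and between 224 and 546 CPM in CB (median 329) (log2 fold change -6.15 ± 0.34 (SE), adjusted p = 4.33e-06), and Rora, which Purkinje cell maturation requires, lay between 6.21 and 13.1 CPM in HIP (median 9.58) and between 185 and 343 CPM in CB (median 236) (log2 fold change -4.70 ± 0.24 (SE), adjusted p = 2.93e-06). For each of these genes the lowest CB library stood well above the highest HIP library. The Ebf factors Ebf1 (-5.17 ± 0.10), Ebf2 (-6.96 ± 0.26) and Ebf3 (-4.54 ± 0.14) were higher in CB. The exception was Aldoc, which later marks a subset of Purkinje cells and is also made by astrocytes (0.54 ± 0.17, higher in HIP). Foxp1 (0.35 ± 0.19, passing without mouse 4, adjusted p = 0.024) and Dab1 (-0.28 ± 0.22) did not pass the test.

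Inhibitory interneuron genes of the cerebellum and deep nuclei had 14 of 16 members higher in CB and none higher in HIP, with a median of -2.63. Tfap2b, which acts in the GABAergic lineage below Ptf1a, lay between 0 and 0.24 CPM in HIP (median 0.103) and between 43.2 and 81.5 CPM in CB (median 59.4) (log2 fold change -9.07 ± 0.30 (SE), adjusted p = 3.56e-07). Ptf1a itself, which commits progenitors to the inhibitory fate, had no count in HIP and was at least 134-fold higher in CB. Slc6a5, the glycine transporter of glycinergic terminals, was higher in CB (-5.27 ± 0.29). Among the 12 genes of largest fold in CB were also Slc6a2, the noradrenaline transporter, at 0.0283 ± 0.0254 CPM in HIP and 19.5 ± 20.8 CPM in CB, and Evx2, at least 265-fold higher. Dbh, which makes noradrenaline, averaged 0.0384 ± 0.0442 CPM in HIP and 4.44 ± 4.88 CPM in CB. The summed brainstem list was highest in CB of mouse 1 (44.9 CPM) and mouse 3 (42.2 CPM), and its part in these values was not tested.

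**Figure D3:**
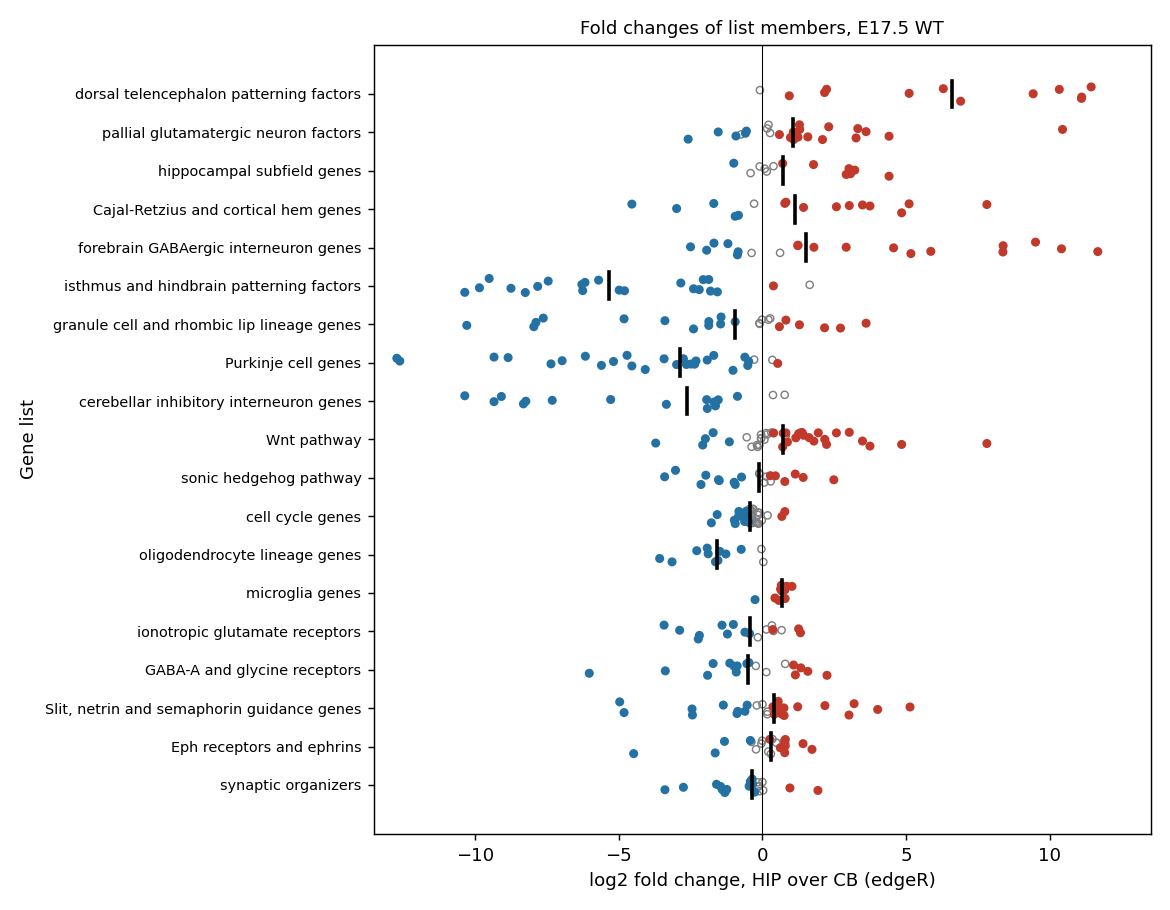
Fitted log2 fold change of HIP over CB (x axis) of each tested member of 19 gene lists (y axis), with filled red for genes higher in HIP, filled blue for genes higher in CB, open grey for genes that did not pass the test, and a black bar at the median of the list. Fitted values of genes with no count in one region depend on the prior count. The 5 lists at the top have medians between 0.71 and 6.60, and Purkinje cell genes have a median of -2.86.

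Sonic hedgehog, secreted by Purkinje cells, drives the division of granule precursors, and its pathway was split. Of 20 genes tested, 9 were higher in CB and 6 in HIP, with a median of -0.10. The ligand Shh lay between 0 and 0.402 CPM in HIP (median 0.316) and between 2.18 and 3.15 CPM in CB (median 2.82) (log2 fold change -3.40 ± 0.39 (SE), adjusted p = 2.67e-04). The direct targets were higher in CB: the receptor Ptch1 lay between 30.9 and 69.7 CPM in HIP (median 39.5) and between 106 and 139 CPM in CB (median 123) (log2 fold change -1.50 ± 0.11 (SE), adjusted p = 2.76e-05), and Gli1 (-1.52 ± 0.12) and Hhip (-1.96 ± 0.23) were higher there too. Of the co-receptors, Boc was higher in CB (-2.13 ± 0.19) and Cdon in HIP (2.49 ± 0.21). Gli3, the main repressor of the pathway, was higher in HIP (1.15 ± 0.17), and Smo, the transducer, did not pass the test (0.14 ± 0.16).

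Cell cycle genes differed by small amounts and not alike in all mice. Of 41 tested, 12 were higher in CB and 2 in HIP, with a median of -0.42, and 38 had a fitted fold towards CB. The share of the list that passed, 34.1%, was below that of all genes tested, 44.7%. Of all genes tested, 24.3% were higher in CB. The summed level of the cell cycle genes was higher in HIP in mice 3 (3920 against 3166 CPM) and 4 (4065 against 2992 CPM), the mice whose HIP libraries stood apart on the second component, and higher in CB in the other 4 mice. Ccnd1, a cyclin that hedgehog signalling raises, was higher in CB (-0.94 ± 0.12) and Ccnd2 in HIP (0.78 ± 0.17). Mki67 lay between 162 and 300.1 CPM in HIP (median 219.6) and between 219 and 285 CPM in CB (median 257) (log2 fold change -0.21 ± 0.14 (SE), adjusted p = 0.28), and the regions overlapped. The replication genes E2f1 (-0.97 ± 0.15), Cdc6 (-0.83 ± 0.22) and Cdt1 (-0.77 ± 0.21), and the inhibitors Cdkn1a (-1.77 ± 0.22) and Cdkn1c (-1.57 ± 0.08), were higher in CB, whereas Cdkn1b was higher in HIP (0.68 ± 0.14). The count higher in CB moved with the mice and the test: it was 30 without mouse 4, 22 without mouse 3, 8 without any one of the others, 6 without mice 2 and 6, 20 with DESeq2 and 18 with a likelihood ratio test.

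Glia were not alike in the regions. Genes of the nuclear factor I family were higher in HIP. Nfix lay between 263 and 877 CPM in HIP (median 692) and between 43.7 and 71.1 CPM in CB (median 59) (log2 fold change 3.36 ± 0.29 (SE), adjusted p = 5.12e-05), and Nfib (2.15 ± 0.13) and Nfia (1.70 ± 0.23), which act in the switch to gliogenesis and in hippocampal development, were also higher. Gfap, an astrocyte filament, lay between 19.6 and 75.1 CPM in HIP (median 47.7) and between 0.219 and 6.22 CPM in CB (median 3.57) (log2 fold change 4.04 ± 0.29 (SE), adjusted p = 1.91e-05). Other astroglial genes were higher in CB, with Aldh1l1 between 5.01 and 35.5 CPM in HIP (median 25.2) and between 177 and 279.9 CPM in CB (median 210.2) (log2 fold change -3.51 ± 0.33 (SE), adjusted p = 8.47e-05), and with log2 fold changes of -2.59 ± 0.16 for Sparcl1, -2.57 ± 0.19 for Aqp4 and -2.35 ± 0.11 for Gdf10 of Bergmann glia. In all, 9 of 17 astroglial genes were higher in HIP and 6 in CB. Oligodendrocyte lineage genes were higher in CB in 10 of 12 tested and in HIP in none, for example Olig1 (-2.28 ± 0.35), Pdgfra (-1.54 ± 0.26) and Bcas1 (-3.57 ± 0.18). Microglia genes were higher in HIP in 10 of 11 and in CB in 1, but by small amounts, and their median was 0.67. Cx3cr1 lay between 13.4 and 19.3 CPM in HIP (median 14.9) and between 8.12 and 10.9 CPM in CB (median 9.84) (log2 fold change 0.68 ± 0.09 (SE), adjusted p = 5.63e-04). Of 13 endothelial and mural genes, 7 were higher in HIP and none in CB, 4 without mice 2 and 6. The thyroid hormone carrier Slco1c1 had the largest of these differences (1.85 ± 0.17). Dio2, which activates thyroid hormone, was among the 5 genes of smallest p in HIP and lay between 42.6 and 64.6 CPM in HIP (median 48.8) and between 0.25 and 0.731 CPM in CB (median 0.563) (log2 fold change 6.61 ± 0.16 (SE), adjusted p = 6.99e-08).

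Guidance genes showed some of the largest differences among highly expressed genes. Of 29 slit, netrin and semaphorin genes, 16 were higher in HIP and 9 in CB. Sema3c lay between 319 and 521 CPM in HIP (median 419) and between 8.25 and 16.9 CPM in CB (median 12.4) (log2 fold change 5.14 ± 0.17 (SE), adjusted p = 3.78e-07). The receptors of class 3 semaphorins were higher in HIP too, Nrp1 between 501 and 742 CPM in HIP (median 668) and between 32.7 and 51.8 CPM in CB (median 40.0) (log2 fold change 4.01 ± 0.15 (SE), adjusted p = 5.15e-07), and Plxna2 by 2.18 ± 0.11 on the log2 scale. Slit3 was higher in HIP (3.19 ± 0.11), and Robo2 (-2.44 ± 0.12) and Robo3 (-4.96 ± 0.50), of the roundabout family of guidance receptors, together with Sema3a (-2.43 ± 0.17), were higher in CB. Of 21 Eph receptors and ephrins, 9 were higher in HIP, among them Epha4 (1.73 ± 0.11), and 4 in CB, among them Epha10 (-4.47 ± 0.39) and Epha8 (-1.64 ± 0.12).

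By the number of genes called, transmission genes were mostly higher in CB at E17.5, but the direction of summed levels differed between lists. Ionotropic glutamate receptor genes summed to a median of 1588 CPM in HIP and 1475 CPM in CB, with HIP lower in mice 2, 3 and 4. GABA-A and glycine receptor genes summed to 933 and 778 CPM, with HIP lower in mice 3 and 4. Synaptic organizers went the other way, with 2184 CPM in HIP and 2646 CPM in CB. So did metabotropic glutamate receptors (214 and 396 CPM) and vesicular transmitter transporters (125 and 169 CPM). Genes of GABA and glycine synthesis, uptake and chloride transport also summed lower in HIP (524 and 874 CPM). In these last 3 lists HIP was lower in every mouse. Of 17 ionotropic glutamate receptor genes, 9 were higher in CB and 3 in HIP. Without mouse 4 the latter count was 6, and without mouse 3 it was 5. Gria1 (1.26 ± 0.10) and Grin2b (1.33 ± 0.27), the AMPA and NMDA receptor subunits of young pyramidal neurons, were higher in HIP, and Grin3a (-2.88 ± 0.54), Grik1 (-2.23 ± 0.38) and Gria4 (-1.01 ± 0.06) in CB. Slc17a7, the vesicular glutamate transporter of the cortex and hippocampus, lay between 22.7 and 53.4 CPM in HIP (median 43.7) and between 1.9 and 7.21 CPM in CB (median 4.87) (log2 fold change 3.13 ± 0.25 (SE), adjusted p = 3.55e-05). Of 18 GABA-A and glycine receptor genes, 10 were higher in CB and 5 in HIP, and the alpha subunits were divided, with Gabra2 (2.25 ± 0.10), Gabra5 (1.58 ± 0.35) and Gabra4 (1.09 ± 0.10) in HIP and Gabra3 (-1.90 ± 0.28) in CB. Slc12a5, the chloride exporter that makes GABA inhibitory, lay between 7.02 and 71.2 CPM in HIP (median 25) and between 109 and 154 CPM in CB (median 127) (log2 fold change -2.42 ± 0.39 (SE), adjusted p = 0.0017), whereas its importer Slc12a2 was slightly higher in HIP (0.51 ± 0.09). Of 20 synaptic organizers, 12 were higher in CB, including Cbln1, which joins parallel fibres to Purkinje cells (-3.39 ± 0.14), and 2 in HIP. Slc12a5, Grin3a, Cbln1 and Gria4 had no mouse in which HIP was above CB, and their regions did not overlap.

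The genes of smallest p also named less familiar candidates. In HIP these included Fezf2, Cnih3, an auxiliary subunit of AMPA receptors (4.10 ± 0.08), Sh3rf3 (3.85 ± 0.09) and Dio2. In CB they were Barhl1, Mab21l1 (-4.93 ± 0.08), Ebf1, Arhgef33 (-7.04 ± 0.13) and the phosphodiesterase gene Pde1c (-3.75 ± 0.07). Among the 12 of largest fold in HIP were 3 antisense transcripts, Emx2os, Dlx6os1 and Dlx1as, and the long intergenic RNA E330013P04Rik. Dlx6os1 averaged 41.6 ± 15.6 CPM in HIP and 0.0252 ± 0.0302 CPM in CB and E330013P04Rik 17.1 ± 8.29 CPM in HIP and 0.0253 ± 0.0233 CPM in CB. The strand setting of the counting is not given in the sources used here, so that reads of an antisense gene and of its partner may not be fully separated.

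Cul3 itself did not pass the test, and its libraries overlapped between the regions. It lay between 185 and 215 CPM in HIP (median 207) and between 203 and 221 CPM in CB (median 215) (log2 fold change -0.06 ± 0.06 (SE), adjusted p = 0.5). Rhoa (0.03 ± 0.06) and the adaptors Kctd13 (0.00 ± 0.09) and Tnfaip1 (-0.06 ± 0.08) also did not pass the test. Of 13 genes of this list, 2 were higher in HIP (Arhgef12, 0.28 ± 0.08, and Rock1, 0.16 ± 0.06) and 1 in CB (Cand1, -0.16 ± 0.06). The call of Cand1 was lost without any one mouse (adjusted p = 0.103 to 0.33) and that of Rock1 without mouse 3 or 5 (0.11 and 0.105). Both were also lost with a likelihood ratio test (0.12 and 0.14) and with no filter (0.196 and 0.13), and without mice 2 and 6 none of the list was higher in HIP, Arhgef12 included (0.13).

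The same contrast was made in 6 Cul3+/- embryos of the same age. They share no library with the WT mice, but their names carry the same prefixes as those of the WT mice. In these embryos, Cul3 averaged 117 ± 6.36 CPM in HIP and 125 ± 7.84 CPM in CB. Of 17482 genes tested, 8487 (48.5%) passed, 3945 (22.6%) higher in HIP and 4542 (26%) higher in CB. In both genotypes and in the same direction, 6416 genes passed, which is 82.3% of the WT calls and 75.6% of the Cul3+/- calls, and 2 passed in opposite directions. Emx1 had a log2 fold change of 10.77 ± 0.31 in the Cul3+/- embryos, Barhl1 of -9.01 ± 0.43, Zbtb20 of 3.81 ± 0.30, Car8 of -7.45 ± 0.13 and Slc12a5 of -2.90 ± 0.44. The difference of the differences was then tested over the 24 libraries. None of 18339 genes passed in edgeR's quasi-likelihood test, 181 (0.987%) had an unadjusted p under 0.05, and 1 passed with DESeq2 and 2 with a likelihood ratio test. Where nothing differs, a test at its nominal rate would give a share of about 0.05 under that threshold, so the quasi-likelihood test was stricter than nominal here. Its lack of calls therefore does not show that the contrast was alike in the genotypes. Differences between the genotypes that are small beside the spread between mice may not be detected with 6 mice of each.

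The contrast at E17.5 was next set beside that of WT mice at P7 and P35, which are other mice, dissected at other ages. Age and any difference between these sets of libraries cannot be told apart. At P7, 14070 of 17759 genes tested (79.2%) passed, 39.2% higher in HIP and 40% higher in CB, and at P35 12698 of 17460 (72.7%), 36.2% and 36.6%. The HIP against CB difference changed between E17.5 and P7 for 12551 of 18864 genes (66.5%), and between E17.5 and P35 for 11550 of 19088 (60.5%), by the interaction of region and age in edgeR. Of 6343 genes that passed at both E17.5 and P7, 3573 kept their direction and 2770 had the opposite one. Among those of 8-fold or more at E17.5, 287 had the same direction at P7 and 64 the opposite.

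Most patterning factors held their direction. Fezf2 was at 9.54 ± 0.17 on the log2 scale at P7 and 10.24 ± 0.27 at P35 (interaction adjusted p = 0.29 and 0.99), and 11 of 12 dorsal telencephalic factors were higher in HIP at each age, as were 15 of 17 isthmus and hindbrain factors in CB at P7. Otx1 was the factor of this list that was higher in CB at P7 (-1.12 ± 0.11, interaction adjusted p = 1.26e-09) and was again higher in HIP at P35 (3.05 ± 0.28). En2 stood at -9.61 ± 0.10 and -8.17 ± 0.15, and Barhl1 at -12.50 ± 0.16 and -8.04 ± 0.36. Zbtb20 narrowed to 1.93 ± 0.13 and 1.25 ± 0.27 (interaction adjusted p = 1.54e-06 and 9.04e-06), and Neurod6 widened at P35 to 5.76 ± 0.10 (adjusted p = 4.80e-07). Trp73 went from 5.10 ± 0.22 at E17.5 to -0.41 ± 0.07 at P7 and -0.02 ± 0.14 at P35 (interaction adjusted p = 6.52e-10 and 8.73e-09).

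The counts of cell cycle, oligodendrocyte and receptor genes higher in each region differed between the ages. At P7 all 41 cell cycle genes were higher in CB, with a median log2 fold change of -2.53. Mki67 averaged 44.5 ± 5.4 CPM in HIP and 358 ± 37.1 CPM in CB at P7 (-3.01 ± 0.07, interaction adjusted p = 1.08e-08). At P35, 25 of the genes were higher in HIP and 9 in CB, and Mki67 averaged 4.06 ± 0.585 CPM in HIP and 1.15 ± 0.441 CPM in CB (1.87 ± 0.16). Gli1 widened to -3.55 ± 0.09 at P7 (interaction adjusted p = 6.43e-08). None of Nfia, Nfib and Nfix was higher in HIP at P7 or P35, with Nfia at -1.45 ± 0.06 and -1.15 ± 0.24, Nfix at -0.24 ± 0.06 and -0.75 ± 0.18, and Nfib at -1.09 ± 0.06 and -0.04 ± 0.13 (interaction adjusted p at P7 1.50e-07, 1.94e-07 and 1.64e-09). Gfap was at -0.42 ± 0.05 at P7 and 1.58 ± 0.09 at P35. Oligodendrocyte lineage genes were still higher in CB in 9 of 13 and in HIP in 4 at P7 (median -1.30), and at P35 in CB in 1 and in HIP in 9. Olig1 was among those higher in HIP at both ages (0.89 ± 0.14 and 1.01 ± 0.12). Ionotropic glutamate receptor genes were higher in HIP in 13 of 17 at P7 and GABA-A and glycine receptor genes in 15 of 17, against 3 of 17 and 5 of 18 at E17.5. At P35 the former were higher in HIP in 10 of 18 and in CB in 8, and the latter in HIP in 11 of 17 and in CB in 5. Over all genes tested, the share higher in HIP was itself 20.4% at E17.5, 39.2% at P7 and 36.2% at P35. The share higher in CB was 24.3%, 40% and 36.6%. Grin3a moved from -2.88 ± 0.54 to 2.00 ± 0.12 at P7 (interaction adjusted p = 5.84e-06) and Slc12a5 from -2.42 ± 0.39 to 1.26 ± 0.08 (adjusted p = 4.09e-06). At P35 Slc12a5 was higher in CB again (-0.46 ± 0.07).

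**Figure D4:**
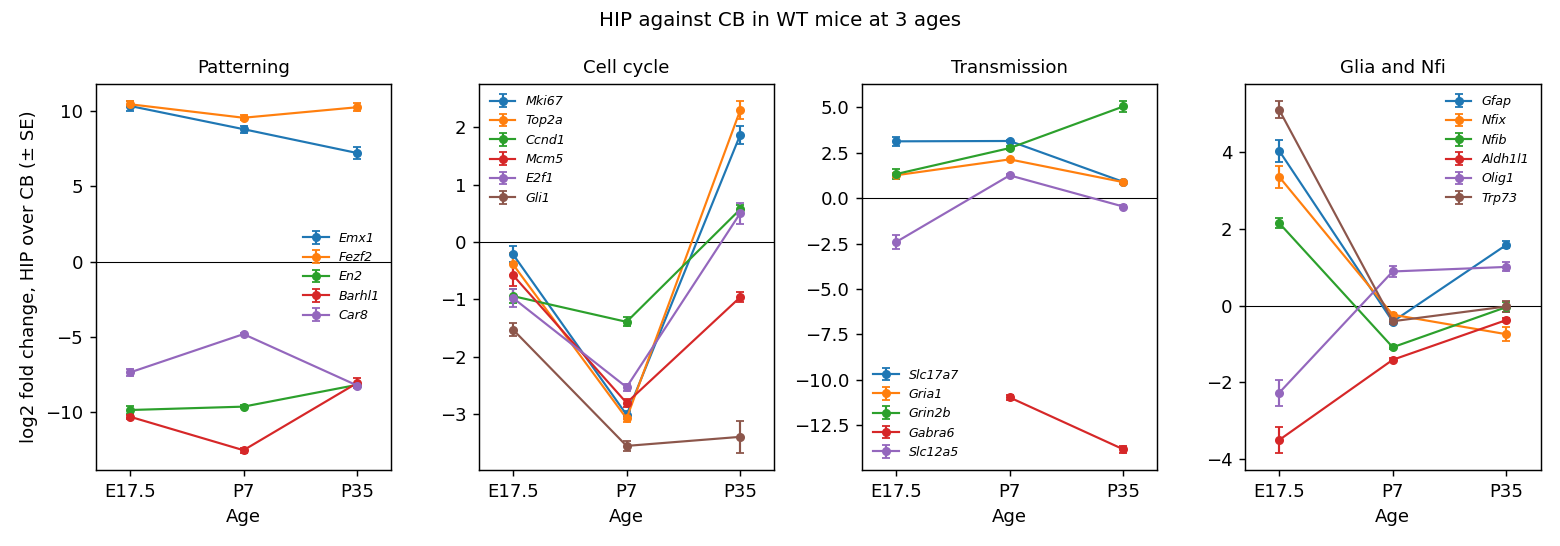
Log2 fold change of HIP over CB with its SE (y axis, its range differing between panels) in WT mice at E17.5, P7 and P35 (x axis) for 22 genes in 4 groups, with 6, 6 and 5 mice. Mki67 falls from -0.21 at E17.5 to -3.01 at P7 and lies at 1.87 at P35, whereas Fezf2 lies at 10.44, 9.54 and 10.24. Gabra6 was not tested at E17.5.

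The genes of smallest interaction p between E17.5 and P7 were Kcnab2, Ifi203, Mndal, Coch, Dio2 and Rem2. Kcnab2, a potassium channel subunit, averaged 16.5 ± 1.88 CPM in HIP and 30.3 ± 2.45 CPM in CB at E17.5 and 156 ± 15.6 CPM in HIP and 40.8 ± 4.36 CPM in CB at P7 (interaction adjusted p = 5.39e-11). Ifi203, an interferon-inducible gene with close relatives in the same cluster, was at 5.56 ± 0.19 on the log2 scale at E17.5 and -1.70 ± 0.09 at P7 (adjusted p = 5.39e-11), and the neighbouring Mndal at 3.83 ± 0.14 and -1.70 ± 0.08. Reads of such relatives may have been shared among them. For P35 the 6 genes were Necab2, Kcnq5, Il16, Iqgap2, Neurl1b and Syt9. Kcnq5, also a potassium channel subunit, averaged 15 ± 6.02 CPM in HIP and 13.6 ± 4.14 CPM in CB at E17.5 and lay between 104 and 142 CPM in HIP and between 1.52 and 1.89 CPM in CB at P35 (adjusted p = 2.67e-11). Il16, whose neuronal form is known from cerebellar granule cells, was the one among them to turn from HIP (2.46 ± 0.12) to CB (-2.39 ± 0.06, adjusted p = 2.67e-11).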

How the data were processed

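Libraries were made from ribosome-depleted total RNA with a stranded kit and sequenced in pairs. Per the submitters' processing notes and the methods, reads were trimmed with Cutadapt (version 1.14), aligned to GRCm38.p5 with STAR (2.5.3a) and counted per gene with RSEM (1.3). The deposited values are expected counts, which are estimated and need not be whole (5.70% of values of the 12 libraries were not). They were rounded here. The labels and the methods give different read lengths, and the strand setting of the counting is not given in the sources used here.

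Symbols and biotypes were taken from the name table and GENCODE M21 for 53274 of 53465 genes. CPM are counts per 1000000 after scaling by trimmed mean of M values (TMM). Genes with few counts were removed with filterByExpr (minimum count 10, minimum total 15). Region was tested with edgeR (4.0.16, R 4.3.3), by the two-sided quasi-likelihood F test with mouse as a block, and p was adjusted by Benjamini-Hochberg over all genes tested. Genes with an adjusted p of at most 0.1, the study's FDR, were called. The pairing comes from the mouse names in the labels: same-mouse deviations correlated at -0.19 to 0.17 (median 0.14), against a median of -0.00247 for different mice. No pair of libraries of a region agreed within sampling noise. SE are those implied by the F statistic, and ± after CPM is the SD over the mice. Folds against a region with no count use a floor of 3 counts over its 6 libraries, and ratios from 1 to 3 counts have exact Poisson intervals, which cover counting error only. With such genes at their bound, no list median changed. Interactions of region with genotype or age were tested in joint fits of the same kind. One P35 mouse was left out, since its genotype differs between the labels and the study's quality table.

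The named genes are members of the gene lists that carry a group, the 12 of largest fold in each direction without overlap and with at least 5 CPM, the 5 of smallest p in each direction, and the 6 of smallest p of each interaction. Some genes named by this rule are not reported here. The libraries and lists were chosen with earlier results of these data known. The scripts were tested on simulated data. Alternatives were no replicate block, upper-quartile scaling, DESeq2 (1.42.0), no filter, a likelihood ratio test, glmTreat, an FDR of 0.01 and leaving out each mouse. The fit without mice 2 and 6 was added after seeing the data. That replicates are separate embryos follows from the mouse names.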

Additional observations from a re-analysis of the deposited data

Results flagged for a closer look

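In 19 of 359 groups of 6 libraries examined (summed lists and named genes with a mean of at least 5 CPM), 1 library lay farther from the others than Dixon's test allows. Chance gives about 1 in 20. HIP of mouse 6 was the library concerned for several of them: it was highest for the summed isthmus and hindbrain factors (669 CPM), cerebellar inhibitory interneuron genes (262 CPM), brainstem neuron genes (15.1 CPM), Dlx1 (86.1 CPM), Slc32a1 (24.9 CPM) and Foxp2 (12.4 CPM), and lowest for Cul3 (184.8 CPM) and Cnih3 (65.9 CPM). HIP of mouse 2 was highest for choroid plexus genes (5381 CPM) and Ociad2 (22.5 CPM) and lowest for Tnfaip1 (51.9 CPM). HIP of mouse 4 was highest for Wnt2b (28.1 CPM), Rspo2 (56.1 CPM) and Gabra4 (41.0 CPM) and lowest for Reln (885 CPM). HIP of mouse 3 was highest for Cand1 (298 CPM) and HIP of mouse 5 for Cx3cr1 (19.3 CPM). In CB, mouse 4 was highest for Pax2 (8.90 CPM) and mouse 5 for Slc6a5 (15.4 CPM). The calls of Dlx1, Slc32a1, Foxp2, Cnih3, Wnt2b, Rspo2, Reln, Gabra4, Pax2, Slc6a5 and Cx3cr1 held without any one mouse.

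The HIP against CB difference changed between E17.5 and P7 for 12551 genes and between E17.5 and P35 for 11550 genes by the test of the difference itself. The periods are represented by different mice.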

How the results depend on the processing

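The number of genes that passed (7797) stayed within 1.5-fold under DESeq2 (7827), a likelihood ratio test (7699), upper-quartile scaling (7882), no filter on low counts (7916) and leaving out each mouse (6368 to 7981). A stricter FDR of 0.01 gave 3935 genes, 1649 higher in HIP and 2286 higher in CB. Of the genes at least 2-fold different (2442), 1377 passed when the test itself asked for more than 2-fold (glmTreat), 470 higher in HIP and 907 higher in CB, and leaving out each mouse gave 2405 to 2520. Upper-quartile scaling moved the median log2 fold change of all genes from -0.01 to 0.03. Without the replicate block of mice, 8274 genes passed in WT (2451 of them at least 2-fold different) and 8923 in Cul3+/- embryos (8487 with it), 12489 and 11747 for the interactions with age, and 0 for that with genotype. That interaction gave 1 gene with DESeq2 and 2 with a likelihood ratio test.

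Of 2148 values of 179 named genes under the alternatives, 2084 kept their direction and their side of the threshold. The sign turned only in genes that had not passed. Leaving out each mouse gave log2 fold changes of -0.035 to 0.038 for Necab2, -0.28 to 0.18 for Etv1, -0.0673 to 0.048 for Tnfaip1, -0.23 to 0.012 for Nr2f2 and -0.026 to 0.093 for Kctd13. Necab2 was also at 0.0014 with no filter, 0.023 with upper-quartile scaling and 0.035 without mice 2 and 6, Tnfaip1 at 0.017 without mice 2 and 6, and Etv1 at 0.047 without the replicate block. The cause was not tested. HIP libraries of mice 1 and 4 held the fewest counts (15126114 and 15264678), which limits what was detectable in HIP.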

Other observations

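Adhesion and excitability genes outside the lists were set out by family, taken by symbol after the data had been seen and described without a test of the family. Over all genes tested, 24.3% were higher in CB and 20.4% in HIP. Cadherins were higher in CB in 14 of 18 tested and in HIP in 1, with a median log2 fold change of -0.98. Cdh18 was at 1.55 ± 1.05 CPM in HIP and 39.5 ± 1.74 CPM in CB (log2 fold change -4.74 ± 0.29 (SE), adjusted p = 8.90e-06) and Cdh9 at 9.3 ± 4.09 CPM in HIP and 95.2 ± 31.7 CPM in CB (log2 fold change -3.36 ± 0.37 (SE), adjusted p = 2.11e-04). Contactins, adhesion molecules of axons, were higher in CB in 5 of 6, with Cntn4 at -3.92 ± 0.48 and Cntn6 at -3.34 ± 0.35, and the exception was Cntn2 (2.72 ± 0.12). The summed level of the 6 contactins was nevertheless higher in HIP, at 1147 to 1618 CPM against 495 to 690 CPM in CB. Of 11 delta protocadherins, 6 were higher in CB and 1 in HIP, and of 56 clustered protocadherins 17 and 11, most by less than 2-fold. The share of clustered protocadherins that passed, 50%, was near that of all genes tested, 44.7%. Exons of clustered protocadherins are near-identical in part, so that counts may be split among them.

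Voltage-gated potassium channel alpha subunits were higher in CB in 18 of 33 and in HIP in 9, and sodium channel alpha subunits in CB in 5 of 8 and in HIP in 1. Scn1a, the channel of fast-spiking neurons, was at 11.8 ± 4.96 CPM in HIP and 30.5 ± 4.47 CPM in CB (log2 fold change -1.47 ± 0.23 (SE), adjusted p = 0.0013). All 4 nuclear factor I genes, Nfic included (0.74 ± 0.22), were higher in HIP. Among nuclear receptors, 15 of 28 were higher in CB and 8 in HIP. Pou4f1, a factor of sensory and brainstem neurons, was at 0.183 ± 0.097 CPM in HIP and 2.34 ± 1.33 CPM in CB (log2 fold change -3.46 ± 0.42 (SE), adjusted p = 3.48e-04), and Foxb1 at 0.00571 ± 0.014 CPM in HIP and 3.44 ± 0.518 CPM in CB.

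Of 63 replication-dependent histone genes tested, 46 were higher in CB and none in HIP, with a median log2 fold change of -0.67, though 4 reached 2-fold. The copies are near-identical, so that counts of single genes are uncertain. Their summed level was higher in HIP in mice 3 (6491 against 6164 CPM) and 4 (7261 against 5618 CPM) and higher in CB in the other 4 mice. Of 76 cytosolic ribosomal protein genes, 0 passed edgeR's quasi-likelihood test, 0 had an unadjusted p under 0.05 and 0 passed with DESeq2, and their median was -0.01. Without mouse 6, 9 of them passed, and without mouse 3, 1.

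By biotype, 47.9% of 14369 protein-coding genes passed and 13.8% passed and were at least 2-fold different. For long intergenic RNAs (496 tested) these shares were 42.5% and 24%, and for antisense genes (367 tested) 37.6% and 22.3%.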
